A study of Rattus norvegicus with 24 samples.

Results

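The comparison described here set 8 soleus muscles of rats that kept running (TR, trained) against 8 of rats that had stopped (DETR, detrained), which makes 16 of the 24 arrays in the series. Members were taken by group label and all genes were considered. All animals were female rats of about 14 weeks. Trained rats had a wheel in the cage for 8 weeks and ran at will. Detrained rats had the wheel for 4 weeks and then lived in ordinary cages for the other 4 weeks. The 8 sedentary rats (SED), which never had a wheel, were used only to link the slides on which the arrays were printed. Every rat, in every group, ran for 1 h at 20 m/min on a forced wheel, and the middle of the soleus was taken 24 h later. The contrast is therefore between muscles that had all met the same bout, and muscle at rest was not analysed here. It asks what a month without the wheel leaves different from running throughout.

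The soleus is a postural calf muscle made mostly of slow, oxidative fibres. Endurance running raises the capacity of such fibres to take up and oxidise fatty acids, increases capillaries and remodels the connective tissue between fibres. When running stops, these adaptations recede over weeks. A piece of whole muscle also holds blood vessels, fibroblasts, fat cells, macrophages and mast cells, so in these bulk samples fewer cells of a type and less RNA per cell cannot be told apart. The tissue label was borne out by its markers: Acta1, Ckm, Myh7, Tnnt1 and Mb lay at or above the 99.7th percentile of all features on every array, and Des at or above the 97.6th.

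Levels are log2 signals relative to the 75th percentile of the same array, and a difference is trained minus detrained on that log2 scale with its standard error (SE). The arrays sat on 3 glass slides of 8. Slide 1 held 6 detrained arrays (DETR 1 to 6) and 2 sedentary ones, slide 2 held 4 trained arrays (TR 1 to 4) and 4 sedentary ones, and slide 3 held TR 5 to 8, DETR 7 and 8 and 2 sedentary arrays. Only slide 3 carried both groups, and it was dim and scanned apart from the other slides. Its trained arrays had 75th percentile signals of 95.5 to 306.5 and its detrained arrays of 185.6 to 325.4, against 562.3 to 1493.5 on the trained and detrained arrays of the other slides. On TR 5, TR 7 and TR 8, 49.6% to 55.4% of probes were well above background, against 61% to 86% on the detrained arrays. All trained arrays of slide 3 lay in its second row and both detrained arrays in its first, so on that slide position and group cannot be told apart. The repeated spots of a probe varied by a median of 33.9% on TR 2 and 21.9% on TR 5, against 6.7% to 10.6% on the other arrays. These differences were part of every result below, and their share in them was not tested.

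**Figure D1:**
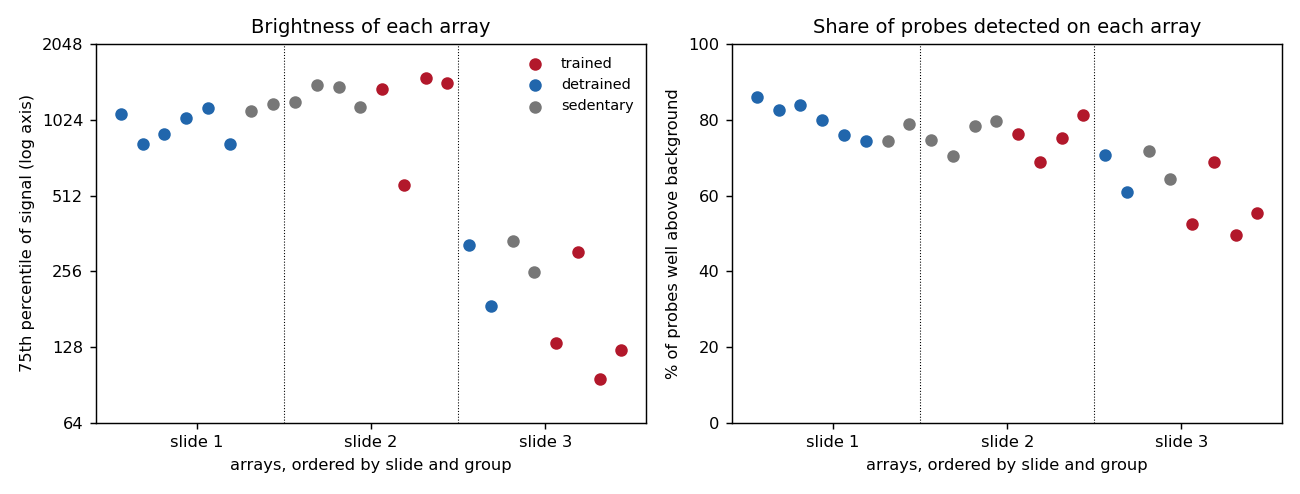
The 75th percentile of signal (left, log axis, scanner units) and the percentage of probes well above background (right) for each of the 24 arrays, ordered by slide and coloured by group, each point being 1 array. Slide 3 is the only slide with both trained and detrained arrays, and its trained arrays TR 5, TR 7 and TR 8, at 133.2, 95.5 and 124.5, are the dimmest of all.

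No gene passed the test of continued training against detraining. With all 24 arrays in 1 limma fit and slide as a term, 0 of 20323 features had an adjusted p under 0.05 (smallest adjusted p 0.149, Benjamini-Hochberg). At an unadjusted p under 0.05, 854 features (4.2%) were higher in trained muscle and 1163 (5.72%) lower. With no limit on p, 45.5% of features were higher and 54.5% lower. All 8 trained arrays lay above all 8 detrained arrays in 6 features (0.0295%) and below them in 19 (0.0935%). Of the features at an unadjusted p under 0.05, 42.3% were higher with the 75th percentile scaling and 62.2% with normexp background correction, which moved the median of all features from -0.03 to 0.13. Weighting arrays by their quality gave 133 features past the adjusted threshold (36 higher, 97 lower), and leaving out TR 6 alone gave 14. TR 5, TR 7, TR 8 and TR 2 had the lowest weights, 0.234, 0.139, 0.163 and 0.13. The values below are thus descriptions of size and spread, and the direction words "higher" and "lower" refer to the fitted difference.

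The slides were also read apart, since slide 3 alone compares the groups on 1 piece of glass. The slide 3 difference uses 4 trained and 2 detrained arrays. The sedentary-based difference subtracts each slide's own sedentary arrays, TR minus SED on slide 2 less DETR minus SED on slide 1, and shares no array with slide 3. Over all 20323 features the signs were the same in 9910 (48.8%), with a Pearson correlation across features of 0.03. The sedentary-based difference had an unadjusted p under 0.05 in 440 features that were higher (2.17%) and 1247 that were lower (6.14%), and 0 passed adjustment in either reading. Both differences were higher in 20.2% of features and lower in 28.5%. Features on 1 array share its labelling and brightness and are not independent replicates, so these figures are given without a p.

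Agreement depended on how features were selected. Among the 406 features at an unadjusted p under 0.05 on slide 3 (1.31% higher, 0.684% lower), 232 (57.1%) had the same sign on the other slides, with a correlation of 0.27. Restricted further to features well above background on all 24 arrays, 45 of 70 (64.3%) had the same sign, with a correlation of 0.54. The selection on the other slides did not show this: of 1687 features at an unadjusted p under 0.05 through the sedentary arrays, 840 (49.8%) had the same sign, with a correlation of 0.12. Nor did brightness alone, with 5442 of 11588 features well above background on all 24 arrays (47.0%) and a correlation of -0.04. A further count took features past that unadjusted limit in both estimates: 18 were higher in both, 17 lower in both and 17 of opposite sign. None of the 17 opposite features was well above background on all 16 arrays, and 4 of the 18 and 4 of the 17 that agreed were. Of all 20323 features, 11588 were well above background even on all 24 arrays. Most features in each of these counts, agreeing or not, were thus not well above background on some array.

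**Figure D2:**
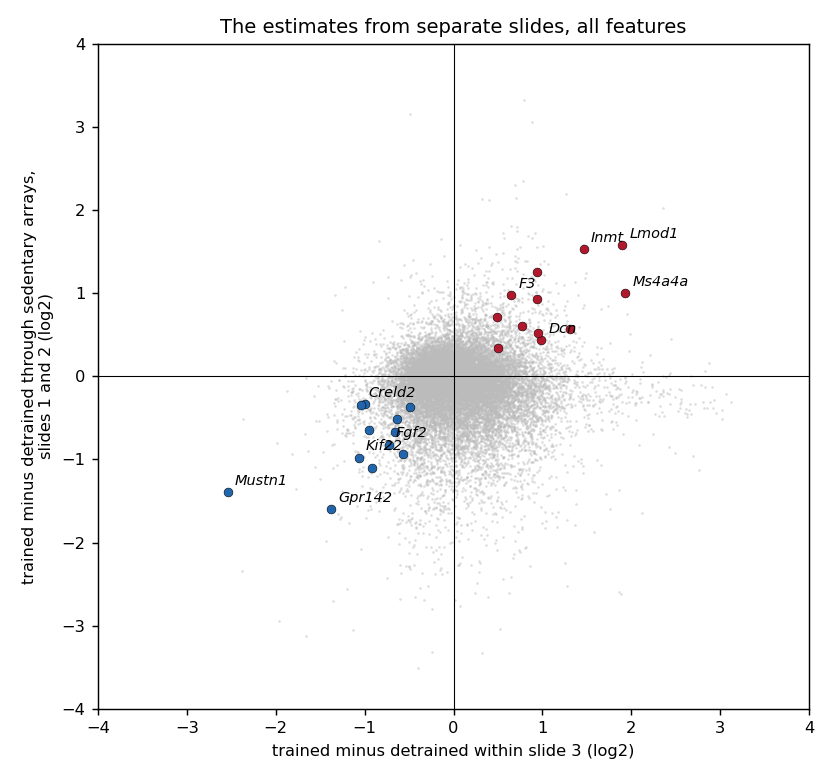
Each grey point is 1 of 20323 features, with the trained minus detrained log2 difference within slide 3 on the horizontal axis and the sedentary-based log2 difference from slides 1 and 2 on the vertical axis. The cloud has no slope (Pearson correlation 0.03), and the 24 leading genes, red for higher and blue for lower in trained muscle, lie in the upper right and lower left quadrants because the fit that chose them combines both axes.

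The 12 genes with the smallest p that were higher in trained muscle were F3, Ms4a4a, Hsd17b13, Lmod1, Pla1a, Aqpep, C1qtnf7, Dcn, Auh, Adap2, Gjc1 and Inmt, by 0.43 to 1.74 (adjusted p 0.149 to 0.232, limma). The 12 that were lower were Fgf2, Nxnl2, Kif22, Bmi1, Or52b2, Cd34, Gpr142, Ssx2ip, Tbl1xr1, Creld2, Mustn1 and Snx13, by 0.45 to 2.06 (adjusted p 0.149 to 0.21, limma). On slide 3 the groups did not overlap in 10 of the 12 higher and 11 of the 12 lower genes, where 3.61% and 6.31% of all features did so. These genes were picked on a fit that holds slide 3, so the counts describe the choice. Only 5 of the higher genes (F3, Pla1a, Aqpep, Dcn and Auh) and 1 of the lower (Mustn1) were well above background on all 16 arrays, and these are described first.

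F3 encodes tissue factor, the cell surface protein that starts blood clotting. Its level was 0.60, 1.34 and 1.99 (lowest, median and highest of 8) in trained and 0.24, 0.78 and 1.17 in detrained muscle. On slide 3 it was 1.04, 0.77, 0.60 and 1.26 on TR 5 to 8, and 0.30 and 0.24 on DETR 7 and 8. All 4 trained arrays of slide 3 lay above both detrained arrays, and on slide 2 all 4 trained arrays lay above all 6 detrained arrays of slide 1. The difference was 0.77 ± 0.15 (SE) over all slides, 0.64 ± 0.29 on slide 3 and 0.97 ± 0.22 through the sedentary arrays. The size was alike in the 2 readings, which share no array, although neither passed adjustment (adjusted p 0.926 and 0.263, limma). F3 was picked on a fit that combines both readings, so their likeness is favoured by the choice.

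Dcn encodes decorin, a small proteoglycan that binds collagen fibrils between muscle fibres. Its level was 2.46, 3.81 and 4.23 (lowest, median, highest) in trained and 2.26, 3.29 and 3.51 in detrained muscle. TR 5 to 8 read 3.32, 2.46, 3.69 and 3.49, and DETR 7 and 8 both read 2.26. The groups did not overlap on slide 3, with TR 6 the closest to the detrained pair. The difference was 0.78 ± 0.18, 0.98 ± 0.38 on slide 3 and 0.44 ± 0.18 through the sedentary arrays, and without TR 6 it was 0.91 with an adjusted p of 0.0301 (limma).

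Pla1a, a phospholipase that acts on phosphatidylserine, ranged from -1.49 to -0.52 (median -0.97) in trained and from -1.82 to -0.90 (median -1.11) in detrained muscle. Its difference was 0.58 ± 0.12 over all slides, 0.48 ± 0.26 on slide 3 and 0.72 ± 0.18 elsewhere. Aqpep, an aminopeptidase, ranged from -1.99 to -0.73 (median -1.36) in trained and from -2.41 to -1.51 (median -2.07) in detrained muscle. On slide 3 it read -1.73, -1.54, -0.73 and -1.31 on the trained and -2.12 and -2.41 on the detrained arrays, with no overlap. Its 3 differences were nearly equal, at 0.94 ± 0.21, 0.94 ± 0.34 on slide 3 and 0.93 ± 0.34 through the sedentary arrays. The first, on which Aqpep was picked, combines the other 2.

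Auh encodes a mitochondrial enzyme of leucine breakdown that also binds AU-rich RNA. It read 0.56 to 0.74 on slide 2 and -0.85 to -0.43 on slide 3 in trained muscle, and 0.44 to 0.76 on slide 1 and -1.26 and -1.05 on slide 3 in detrained muscle. The gap between slides was thus larger than that between groups, and the fitted difference, 0.43 ± 0.10, became -0.11 when slide was left out of the model. Within slide 3 the groups did not overlap and differed by 0.50 ± 0.26.

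Mustn1, a small nuclear protein of the musculoskeletal system, had the largest difference of the well measured leading genes and was lower in trained muscle. Its level was 1.26, 2.56 and 3.81 (lowest, median, highest) in trained and 2.19, 3.79 and 5.67 in detrained muscle. On slide 3 TR 5 to 8 read 3.81, 2.65, 2.81 and 2.12 and DETR 7 and 8 read 5.67 and 5.11, the highest values of all 16. The difference was -2.06 ± 0.46 (adjusted p 0.209, limma), -2.54 ± 0.48 on slide 3 and -1.40 ± 0.73 through the sedentary arrays. A second Mustn1 probe gave -2.03 ± 0.45. Ankrd1, a titin-bound protein induced by stretch and load, pointed the same way, at -2.30 ± 0.82 (unadjusted p 0.0101, limma). It was -2.38 on slide 3 and -2.34 through the sedentary arrays, with a median level of -2.93 in trained and -1.16 in detrained muscle. The groups overlap over all slides, and 3 of the 4 trained arrays of slide 3 were not well above background for Ankrd1.

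**Figure D3:**
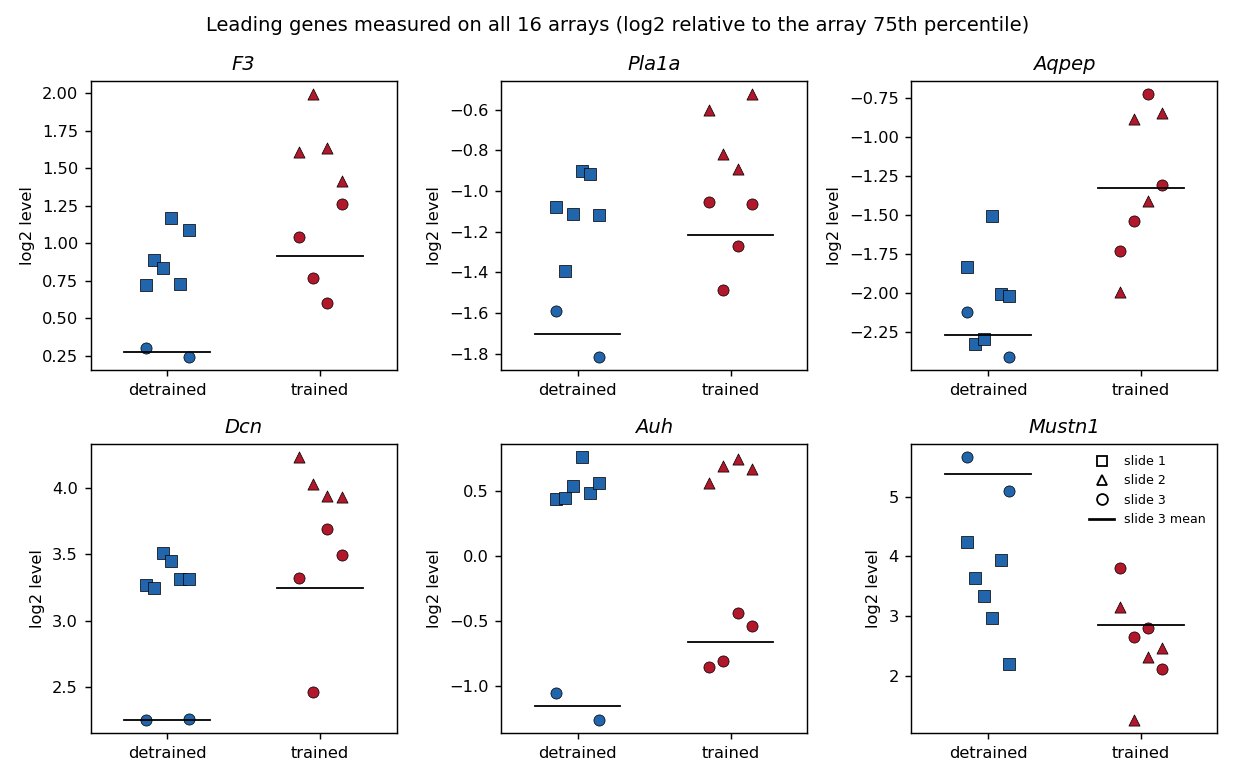
Log2 level relative to the array's 75th percentile for F3, Pla1a, Aqpep, Dcn, Auh and Mustn1, each point 1 array (square slide 1, triangle slide 2, circle slide 3) and each bar the slide 3 mean of a group. The trained circles of F3, Dcn, Aqpep, Pla1a and Auh lie above both detrained circles and those of Mustn1 below them, while Auh is lower on slide 3 than on the other slides in both groups.

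Of the other 18 leading genes, 5 higher and 7 lower ones were well above background on at most 1 of the 4 trained arrays of slide 3. Fgf2, the basic fibroblast growth factor, had the smallest p among the lower genes. It ranged from -3.08 to -2.44 (median -2.93) in trained and from -2.55 to -1.88 (median -2.44) in detrained muscle, and differed by -0.77 ± 0.15, -0.73 ± 0.31 on slide 3 and -0.82 ± 0.19 elsewhere. The ranges met only through TR 6. On slide 3 Fgf2 was well above background on 1 of 4 trained and 2 of 2 detrained arrays, so its trained values there carry little more than a bound.

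Cd34, a surface protein of endothelium and interstitial progenitors, differed by -0.86 ± 0.19, and Kif22, a kinesin of dividing cells, by -1.03 ± 0.21. Both were well above background on 1 of the 4 trained arrays of slide 3. Among the higher genes, Ms4a4a, a membrane protein of macrophages, differed by 1.55 ± 0.31 and Lmod1, a leiomodin of smooth muscle, by 1.74 ± 0.37. On slide 3 Ms4a4a was well above background on 2 of 4 trained and 0 of 2 detrained arrays, and Lmod1 on 1 of 4 and 0 of 2. Their differences there, 1.93 and 1.90, thus rest on detrained values that were not well above background. Over all slides Lmod1 was well above background on 4 of 8 trained arrays. Nxnl2 had a second probe whose difference was -0.21 ± 0.39, against -1.001 ± 0.192 for the brighter one.

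Fatty acid genes were higher in trained muscle, by small amounts. Of 33 members of a list for fatty acid uptake and oxidation, 28 were higher and 5 lower, with a median difference of 0.21 against -0.03 over all features. At an unadjusted p under 0.05, 6 were higher (4.2% of all features were) and 0 lower, none past adjustment. The slide 3 median was 0.23 with 29 higher, and the sedentary-based median 0.26 with 25 higher, so the median kept its direction in both readings. The groups nevertheless overlapped by array. On slide 3 the mean of the list was 2.68 to 3.03 on trained arrays. It was 2.89 on DETR 7, within that range, and 2.35 on DETR 8. On slide 2 it was 2.81 to 3.12 on trained and 2.745 to 3.30 on sedentary arrays. On slide 1 it was 2.79 to 3.32 on detrained arrays and 3.41 and 3.31 on its only 2 sedentary arrays. In 22 of 33 members both readings were higher, against 20.2% of all features.

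Hadhb and Eci2 encode mitochondrial enzymes of β-oxidation and Fabp3 the fatty acid binding protein of muscle cytosol. Hadhb read 2.79, 2.79, 2.72 and 2.45 on TR 5 to 8 and 2.27 and 2.21 on DETR 7 and 8, and differed by 0.47 ± 0.14. Its trained arrays lay above both detrained arrays of slide 3, and over all slides the ranges of 2.38 to 3.06 and 2.20 to 2.62 overlapped. Fabp3 differed by 0.58 ± 0.20 (0.38 without DETR 8), and on slide 3 read 5.86, 5.68, 6.14 and 5.86 against 5.55 and 4.83. Eci2 differed by 0.44 ± 0.15. Among the 5 lower members, Acadl and Acadvl, also enzymes of β-oxidation, differed by -0.44 ± 0.67 and -0.18 ± 0.59. Plin2 differed by -0.11 ± 0.14. Acadl and Acadvl read 0.05 and 0.27 on slide 3 and -1.27 and -0.94 through the sedentary arrays. Their lowest trained values, 1.19 and -0.64, lay far below their trained medians of 6.17 and 4.02. Without a slide term the list's median was -0.03.

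The other mitochondrial lists were read differently by the slides. Of 20 citrate cycle genes, 13 were higher (median 0.05), of 38 respiratory chain and ATP synthase genes 12 were higher and 26 lower (median -0.06), and of 25 mitochondrial ribosomal protein genes 9 were higher and 16 lower (median -0.13). Through the sedentary arrays 19 of 20 citrate cycle genes (median 0.15), 27 of 38 respiratory chain genes (0.11) and 19 of 25 mitochondrial ribosomal genes (0.06) were higher. On slide 3 the numbers higher were 10, 10 and 9, with medians of -0.00, -0.17 and -0.20. The respiratory chain median was 0.15 without the dim arrays TR 5, TR 7 and TR 8. Of the 22 fixed genes of training and metabolism 21 were measured, and 3 had an unadjusted p under 0.05 (Ankrd1, Myod1 and Myog, all lower). Among all features 5.72% were lower at that limit. Ppargc1a, the coactivator that drives mitochondrial biogenesis, differed by 0.01 ± 0.21, Cs, citrate synthase, by 0.00 ± 0.14, and Slc2a4, the insulin-responsive glucose transporter, by -0.00 ± 0.11. Cs read -0.19 on slide 3 and 0.33 through the sedentary arrays. Hk2, which traps glucose in the fibre, differed by -0.25 ± 0.16, with 0.07 on slide 3 and -0.74 through the sedentary arrays. Trim63, a ubiquitin ligase of muscle wasting, differed by 0.35 ± 0.18.

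Most adipocyte markers were likewise higher in trained muscle. Of 14 markers 12 were higher (45.5% of all features were) and 2 lower, with a median of 0.52. On slide 3 12 were higher and 2 lower, with a median of 0.71. Through the sedentary arrays 9 were higher and 5 lower, with a median of 0.60. The mean of the markers lay between -1.18 and -0.44 on trained and between -1.58 and -0.77 on detrained arrays. On slide 3 it was -1.18 to -0.44 against -1.58 and -1.28. On slide 2 it was -1.12 to -0.79 on trained and -1.58 to -0.82 on sedentary arrays. On slide 1 it was -1.35 to -0.77 on detrained arrays and -0.87 and -0.725 on its only 2 sedentary arrays. The trained range of slide 2 thus lay within the detrained range of slide 1, and the sedentary-based median rests on the sedentary arrays. Cfd, the complement factor adipsin, read 0.90, 1.12, 1.49 and 2.39 on TR 5 to 8 and 0.80 and 0.23 on DETR 7 and 8, and differed by 0.87 ± 0.27. Pck1, an enzyme of glyceride and glucose synthesis, differed by 2.23 ± 0.64 (1.39 without DETR 7), and Adipoq, the hormone adiponectin, by 1.20 ± 0.46. Pck1 was well above background on 5 of 8 arrays in each group and Adipoq on 6 trained and 8 detrained arrays. Car3, abundant in slow fibres as well as fat, was lower by -0.34 ± 0.12, and Fabp4 differed by -0.04 ± 0.23. The part of fat cells in the fatty acid result was not tested.

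Macrophage, mast cell and complement genes were also higher in trained muscle. Of 19 macrophage markers 15 were higher (45.5% of all features were), 7 of them at an unadjusted p under 0.05 (4.2% of all features), with a median of 0.33. On slide 3 17 were higher and 2 lower, and through the sedentary arrays 10 were higher and 9 lower. The median was 0.50 on slide 3, 0.12 through the sedentary arrays and 0.08 with array weights. Lyve1, a hyaluronan receptor of resident macrophages and lymphatics, ranged from -2.33 to -0.41 in trained and from -2.65 to -0.86 in detrained muscle and differed by 0.78 ± 0.25. Mrc1, the mannose receptor, differed by 1.04 ± 0.28 but was well above background on 4 trained and 5 detrained arrays. Cd68 and Laptm5, further macrophage markers, differed by -0.19 ± 0.18 and -0.18 ± 0.12.

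All 9 mast cell markers were higher, in both readings, where 20.2% of all features were higher in both. Their median was 0.37 (0.42 on slide 3 and 0.17 through the sedentary arrays). Ms4a2 and Fcer1a, chains of the high-affinity IgE receptor, differed by 0.67 ± 0.18 and 0.63 ± 0.24. Ms4a2 was well above background on none of the 6 trained and detrained arrays of slide 3, a second Fcer1a probe gave 0.17 ± 0.23, and the list's median was 0.11 without DETR 7. Complement genes showed 16 of 19 higher (45.5% of all features were), 7 at an unadjusted p under 0.05 (4.2% of all features), with a median of 0.33 (0.42 on slide 3 and 0.25 through the sedentary arrays). C4a differed by 0.65 ± 0.22, C1s by 0.49 ± 0.19 and C7 by 0.82 ± 0.29. C4a read 1.04, 0.68, 1.15 and 2.01 on TR 5 to 8 and 0.76 and 0.58 on DETR 7 and 8, so the groups overlapped through TR 6. For none of these 19 genes, a list that does not hold Cfd, were the groups on slide 3 without overlap. Among all features the trained arrays lay above without overlap in 3.61% and below in 6.31%, so few such genes would be looked for in 19. A second C7 probe gave 0.15 ± 0.25.

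Most matrix genes were lower in trained muscle, unlike Dcn. Of 27 collagen and matrix genes 22 were lower and 5 higher, with a median of -0.20 (-0.15 on slide 3 and -0.24 through the sedentary arrays), and 3 were lower at an unadjusted p under 0.05, where 5.72% of all features were. Col3a1, a fibrillar collagen, ranged from 2.26 to 2.77 in trained and from 2.54 to 3.39 in detrained muscle. On slide 3 it read 2.32, 2.50, 2.26 and 2.62 against 2.88 and 3.10, and the groups did not overlap. The difference was -0.56 ± 0.20. Loxl2, which cross-links collagen, differed by -0.63 ± 0.18, and Postn, a matrix protein of remodelling tissue, by -0.86 ± 0.38. Fibroblast markers did not follow 1 direction, with 8 of 14 higher and a median of 0.14.

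Genes of muscle regeneration and of neuromuscular identity fell on both sides. Tnnt2, the troponin T of heart and of developing fibres, was the clearest. It ranged from 1.48 to 2.79 (median 2.13) in trained and from 0.49 to 1.97 (median 1.22) in detrained muscle. On slide 3 it read 1.48, 2.58, 1.84 and 2.03 against 1.28 and 0.93, with no overlap. The difference was 0.90 ± 0.25, 0.88 on slide 3 and 0.98 through the sedentary arrays, and a second probe gave 1.18 ± 0.30. Chrnd, a subunit of the acetylcholine receptor, was higher by 0.83 ± 0.23, mostly on slide 3 (1.15, against 0.30 elsewhere). Myod1 and Myog, transcription factors of muscle differentiation, differed by -0.88 ± 0.38 and -0.41 ± 0.17. Myod1 was well above background on 2 of the 4 trained arrays of slide 3. Myf5, another myogenic factor, went the other way, at 0.47 ± 0.18 (0.72 on slide 3 and 0.09 through the sedentary arrays). Of all 21 satellite cell and myogenic genes 8 were higher and 13 lower, with a median of -0.21. At an unadjusted p under 0.05, 3 were higher and 3 lower, where 4.2% and 5.72% of all features were.

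Of 25 heat shock and chaperone genes 19 were lower in trained muscle (54.5% of all features were), with a median of -0.17 (-0.17 on slide 3 and -0.22 through the sedentary arrays). At an unadjusted p under 0.05, 2 were lower, a share near the 5.72% of all features. Hspa5, the main chaperone of the endoplasmic reticulum, ranged from 1.23 to 2.75 in trained and from 2.53 to 3.07 in detrained muscle and differed by -0.57 ± 0.23. Hspa4, a cytosolic co-chaperone, differed by -0.40 ± 0.14. On slide 3 it read 3.19, 3.21, 2.51 and 2.44 against 3.43 and 3.36, with the lowest values on the dim arrays TR 7 and TR 8. Hspa1b, the inducible cytosolic HSP70, differed by -0.52 ± 0.26. The same compartment as Hspa5 holds Creld2, one of the 12 leading lower genes, at -0.77 ± 0.17.

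Hspa5 and Creld2 are textbook targets of the unfolded protein response, whose factor ATF6 binds the endoplasmic reticulum stress element together with the CCAAT-binding factor NF-Y. The promoter sequences of these and of Hsp90b1 and Calr, further chaperones of the endoplasmic reticulum, are shown because all 4 were lower and all 4 hold that element. The element was searched as CCAAT, any 9 bases and CCACG on both strands, in RefSeq windows of 300 bases (250 before and 50 after the gene start) of assembly GRCr8. Capitals mark the match, read along the gene's strand, and only bases before the gene start are printed.
Creld2, chr7:121789199-121789297, + strand: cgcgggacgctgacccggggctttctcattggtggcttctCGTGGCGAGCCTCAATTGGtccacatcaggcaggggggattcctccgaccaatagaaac
Hspa5, chr3:38452933-38453015, + strand: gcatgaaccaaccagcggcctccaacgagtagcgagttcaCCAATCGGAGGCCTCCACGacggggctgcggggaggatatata
Hsp90b1, chr7:23012411-23012509, - strand: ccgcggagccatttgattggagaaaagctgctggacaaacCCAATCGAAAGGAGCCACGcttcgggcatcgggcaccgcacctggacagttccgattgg
Calr, chr19:40213117-40213193, + strand: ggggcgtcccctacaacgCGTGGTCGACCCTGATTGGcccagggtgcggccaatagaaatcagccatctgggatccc

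The element was in 22 of 33469 promoter windows (0.0657%), and 16 of those genes were tested here. Of these, 10 were lower and 6 higher, with a median of -0.15 against -0.03 over all features. The median was -0.07 on slide 3 and -0.33 through the sedentary arrays. Hsp90b1 differed by -0.28 ± 0.15 (-0.14 without DETR 7), Calr by -0.35 ± 0.20 and Canx, a membrane chaperone with the element too, by -0.26 ± 0.15. Calr read 0.01 on slide 3 and -0.98 through the sedentary arrays. These 3 genes and the element were chosen after their values were seen, and the match is a description and not a binding site. Of the 16 genes 2 (Creld2 and Hspa5) were lower at an unadjusted p under 0.05. No other gene with the element passed that limit in either direction. The element was chosen with the low values of Creld2 and Hspa5 already seen. Their count therefore follows from the choice and cannot be set against the 5.72% of all features. The 10 lower genes and the medians include Creld2 and Hspa5 too, so they do not test the element either. With normexp background correction Creld2 and Canx changed sign, to 0.10 and 0.09.

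Cytosolic ribosomal protein genes were read differently by the slides. Of 43 members 41 were lower in trained muscle (54.5% of all features were), with a median of -0.23. At an unadjusted p under 0.05, 9 were lower, where 5.72% of all features were. On slide 3 42 of 43 were lower, by a median of -0.37, and in 17 the groups did not overlap, where 6.31% of all features did so. Through the sedentary arrays 25 were higher and 18 lower, with a median of 0.02. Rpl23 read 6.55, 6.69, 5.72 and 5.68 on TR 5 to 8 and 6.72 and 6.73 on DETR 7 and 8. On slide 2 it read 7.14, 7.26, 7.21 and 7.08, and on slide 1 7.18 to 7.53. Its lowest values were those of the dimmest arrays, TR 7 and TR 8, and the mean of the whole list on slide 3 was 5.04 to 5.67 on trained arrays and 5.74 and 5.75 on detrained arrays. Without TR 5, TR 7 and TR 8 the median of the list was -0.03. Rpl35 and Rpl24 differed by -0.33 ± 0.13 each.

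Interferon genes were read apart in the same way. Of 29 interferon-induced genes 21 were lower, with a median of -0.17 that was -0.31 on slide 3, 0.01 through the sedentary arrays and 0.10 with normexp background correction. Ifi44 read -1.14, -1.51, -1.26 and -1.73 on TR 5 to 8 and -0.59 and 0.04 on DETR 7 and 8, and differed by -0.96 ± 0.41. Bst2, which tethers budding virus to the cell, ranged from -3.99 to -0.22 in trained and from -1.14 to 0.38 in detrained muscle, with the lowest value on TR 2. Cmpk2, a mitochondrial kinase induced with this group, differed by -0.54 ± 0.26, with -0.86 on slide 3 and 0.02 through the sedentary arrays. Cell cycle genes were low in signal and changed sides too. Their median was -0.15 over all slides (13 of 23 lower), 0.06 on slide 3, -0.19 through the sedentary arrays and 0.13 with normexp background correction. Mki67 and Aurka, markers of dividing cells, differed by -0.77 ± 0.23 and -0.77 ± 0.21, and both were well above background on 5 of 8 trained arrays.

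**Figure D4:**
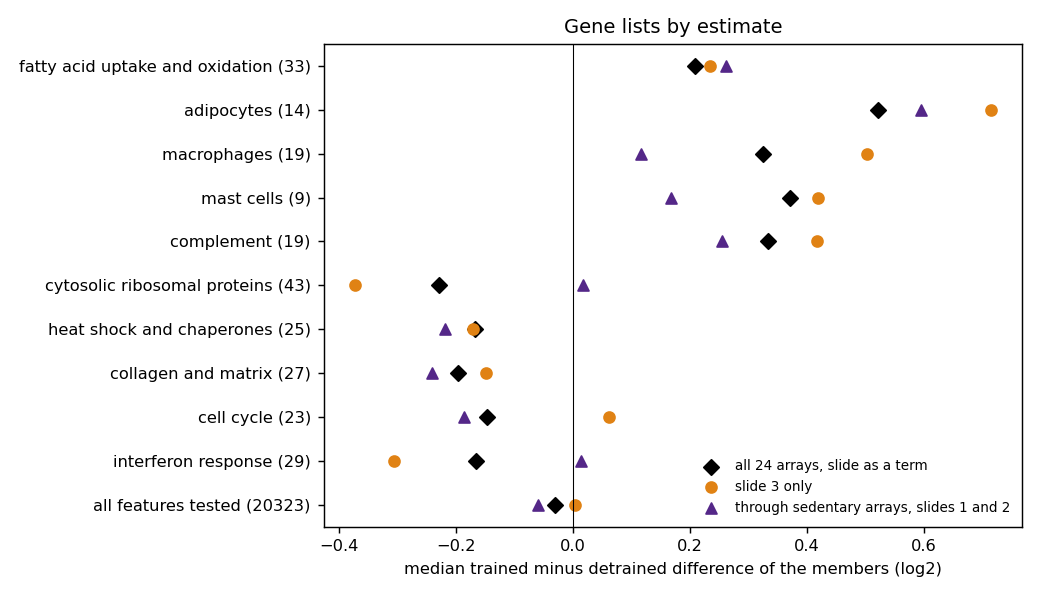
Median trained minus detrained log2 difference of the members of 10 gene lists and of all features, with the number measured in brackets, over all 24 arrays (diamond), on slide 3 (circle) and through the sedentary arrays of slides 1 and 2 (triangle). The fatty acid, adipocyte, macrophage, mast cell and complement lists lie to the right of 0 and the chaperone and matrix lists to the left in every reading, while the ribosomal list is at -0.37 on slide 3 and at 0.02 on the other slides.

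**Figure D5:**
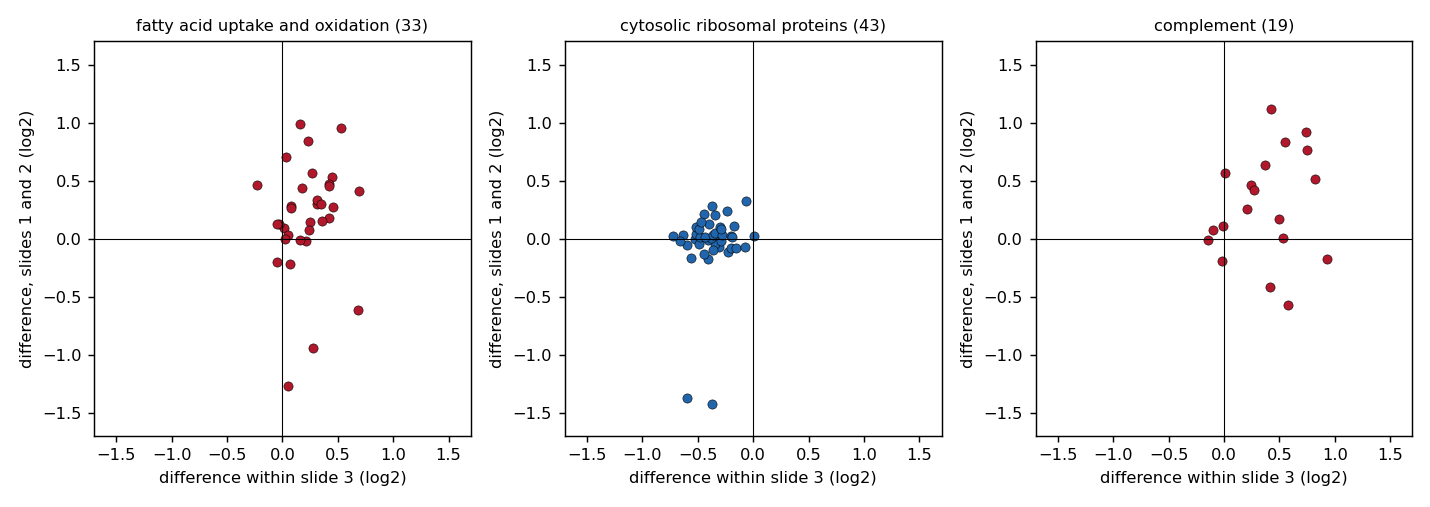
Each point is 1 member of a list, with its log2 difference on slide 3 (horizontal) and its sedentary-based log2 difference from slides 1 and 2 (vertical). The 33 fatty acid genes gather in the upper right quadrant (22 members) and the 43 ribosomal protein genes left of 0 on slide 3 but around 0 on the other slides.

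Fast fibre genes varied more between animals than between groups. Tnni2, the fast troponin I, ranged from 0.35 to 7.88 in trained and from 5.83 to 7.65 in detrained muscle. TR 1, TR 2, TR 4 and TR 5 read 1.31, 0.47, 0.35 and 1.60 and the other trained arrays 6.10 to 7.88. Myh2, the fast myosin IIa, was low on the same 4 arrays and differed by -2.26 ± 1.58. A sedentary array, SED 3, was as low as those, at 0.18 for Tnni2, so low fast fibre signal was not limited to trained rats. Of the 16 fast fibre genes 12 were lower (54.5% of all features were), with a median of -0.58. At an unadjusted p under 0.05, 0 were lower and 1 was higher, Myl1, a fast myosin light chain, by 0.25 ± 0.10. Among all features 5.72% were lower and 4.2% higher at that limit, so counts this small say little about 16 genes. Myh7, the slow myosin, differed by -0.27 ± 0.14.

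Genes of clotting and membrane repair that stood beside F3 included Procr, the endothelial protein C receptor, higher by 0.88 ± 0.21. Procr was well above background on 0 of 4 trained and 1 of 2 detrained arrays of slide 3, where the groups overlapped. Gas6, a ligand of phagocytic receptors, differed by -0.37 ± 0.12 and Anxa2, a plasminogen receptor, by -0.46 ± 0.15, and for both the groups did not overlap on slide 3. Of the 17 clotting and fibrinolysis genes 12 were higher and 5 lower, with a median of 0.17. Among the remaining cell type markers, 13 of 17 for smooth muscle and pericytes (median 0.17), 11 of 16 for endothelium (0.12) and 11 of 12 for Schwann cells and nerve (0.20) were higher, and 10 of 12 for tendon (-0.16) and 5 of 6 for red blood cells (-0.15) lower. The tendon median was 0.31 on slide 3 and -0.86 through the sedentary arrays.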

How the data were processed

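Each soleus gave 1 RNA sample, which was run on its own Agilent array with a single dye (Cy3), per the labels. The deposited scanner files hold spot intensity from Agilent Feature Extraction, background-subtracted within each array (version 11.5.11.1 per the submitters' processing notes, 11.5.1.1 per the file headers). The authors also deposited a table of normalized log2 values of the same arrays, used as an alternative.

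Levels are log2 processed signals less the 75th percentile of the array. After removal of control and outlier spots, repeated spots were averaged to 30367 probes, of which 18635 were named through the RefSeq table and 5637 from the files. The probe with the highest mean stood for a gene, and 20323 features were kept because at least 8 of 24 arrays read them well above background. limma 3.58.1 (R 4.3.3) fitted group and slide over all 24 arrays, and the contrast was adjusted by the Benjamini-Hochberg method. Each rat has 1 array, p-values rest on the spread among rats, and precision is limited by the number of arrays. The fit was checked on simulated data. 33 lists were described by counts and medians. The rule named the 12 genes of smallest p in each direction that were well above background on at least 4 arrays of each group, up to 3 members per list and direction, and 22 fixed genes. Members, lists and rule were chosen with earlier results of these data known. The normexp alternative used the median spot signals that the files hold. Alternatives were quantile normalization, normexp, the authors' table, other filters, slide terms and single slides, array weights, another prior, all probes, a looser threshold, the replicate number as a block, each array left out and, chosen after seeing the data, slide with array row.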

Additional observations from a re-analysis of the deposited data

Results flagged for a closer look

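Of 172 sets of 8 values (76 genes and 10 list means in trained and in detrained muscle), 10 held a value far from its nearest neighbour relative to the range of the set, and chance flags about 1 in 20. In trained muscle these were Bst2 at -3.99 on TR 2 (next -1.48), the mean of the heat shock and chaperone genes at 2.50 on TR 2 (next 2.81) and Lyve1 at -2.33 on TR 6 (next -1.27). TR 2 is the array whose repeated spots varied most, and TR 6 the brightest trained array of slide 3. In detrained muscle they were Pck1 at -3.18 on DETR 8 (next -5.34), Myog at 3.35 on DETR 7 (next 2.69), Snx13 at -1.16 on DETR 7 (next -1.36), Car3 at 6.38 on DETR 1 (next 6.10), Hk2 at -0.56 on DETR 6 (next -0.22), Gjc1 at -3.33 on DETR 6 (next -3.61) and the mean of the macrophage markers at -0.88 on DETR 3 (next -1.11). The cause of each was not tested.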

How the results depend on the processing

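The count of features past the adjusted threshold was 0, with 1 when only trained and detrained arrays were fitted, 1 without TR 5, TR 7 and TR 8 together, 133 with array weights (16 of the 24 leading genes among them) and 0 to 14 with each array left out (14 without TR 6, 3 without TR 2). Numbers shared by trained and detrained rats do not pair them: the residual correlation of same-numbered arrays was -0.379 to 0.03 and 0 of 8 trained arrays correlated best with their own number. The replicate block gave 35 features past the threshold, 2338 higher and 2936 lower at an unadjusted p under 0.05, a ribosomal median of -0.44, a cell cycle median of 0.13 and Cs at -0.187. Leaving out each array gave 445 to 1844 features higher and 848 to 1688 lower at an unadjusted p under 0.05, with 445 higher without DETR 7, 533 without TR 7, 553 without TR 8 and 1844 without TR 6. The counts were 267 higher and 139 lower on slide 3, 440 higher on slides 1 and 2, 538 higher without TR 5, TR 7 and TR 8, 631 lower with normexp, 559 higher and 701 lower among features well above background on all 24 arrays, 2369 lower with array weights and 668 lower with array row as a term.

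List medians over the arrays left out were 0.14 to 0.35 (fatty acid), 0.38 to 0.65 (adipocytes), 0.27 to 0.42 (macrophages), 0.11 to 0.44 (mast cells), 0.19 to 0.45 (complement), -0.26 to -0.15 (ribosomal), -0.21 to -0.14 (chaperones), -0.26 to -0.14 (matrix), -0.18 to -0.03 (cell cycle) and -0.26 to -0.11 (interferon). The cell cycle median was -0.34 with quantile normalization, -0.35 with the authors' table and with array weights, 0.13 with normexp, 0.18 with the strict filter and 0.061 on slide 3 and in the fit of only trained and detrained arrays. The adipocyte median was 0.20 with the strict filter, 0.21 without a slide term and 0.27 with all probes. The macrophage median was 0.08 with array weights, the interferon median 0.10 with normexp, the ribosomal median 0.017 on slides 1 and 2 and -0.030 without TR 5, TR 7 and TR 8, and the fatty acid median -0.033 without a slide term.

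Of 76 genes, 64 were not reversed in any of the 40 alternatives that gave them a value. The filter on all 24 arrays gave none for the genes it removed. Most of the 76 were named for a small p in the main fit. Many alternatives are that fit with 1 array left out, so a lack of reversal is favoured by the choice. With normexp, Creld2 was 0.100, Canx 0.093, Cmpk2 0.105, Tbl1xr1 0.048 and Cs -0.10. Without a slide term Auh was -0.110, Or52b2 0.165, Ppargc1a -0.058 and Cs -0.262. On slide 3, and in the fit of only trained and detrained arrays, Calr was 0.015, Hk2 0.070 and Cs -0.192. On slides 1 and 2 Cmpk2 was 0.016 and Slc2a4 0.054. Slc2a4 was 0.040 with quantile normalization, 0.051 with the authors' table, 0.021 with array weights, 0.085 without TR 5, TR 7 and TR 8, and 0.096 with array row, where Ppargc1a was -0.107. Cs was -0.022 with quantile normalization, -0.025 with the authors' table and -0.037 with slide as a random block, where Ppargc1a was -0.005. Mrc1 was -1.19 with the authors' table, which holds 10.7 for it on DETR 8 and 3.61 to 5.37 on the other arrays; 1 of its 2 spots there was marked as an outlier. With each array left out, Cs ran from -0.045 to 0.086, Slc2a4 from -0.113 to 0.079 and Ppargc1a from -0.113 to 0.135. Apart from Mrc1 the cause of these changes was not tested. Probes not well above background on TR 5, TR 7 and TR 8 carry little more than a bound.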
